A study of Mus musculus with 16 samples.

Results

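The comparison set primary mouse lung fibroblasts treated with a small interfering RNA (siRNA) against Loxl1 beside the same kind of cells treated with an siRNA against Loxl2. It holds 8 of the 16 arrays of the series, namely all samples whose titles name the Loxl1 siRNA (siLoxl1, 4 arrays) or the Loxl2 siRNA (siLoxl2, 4 arrays). All groups were unmodified primary murine cells, passaged 3 or more times and collected 48 hours after transfection, and the remaining 8 arrays held cells given a scrambled siRNA (scr) or the Lox siRNA (siLox). The sources used here give no mouse strain, age or siRNA sequence, and do not say whether the replicates were separate cultures, so p-values measure the spread between these samples, which may be technical. Knockdown is what the sample labels state, although the series title mentions exogenous expression, and the labels were used. No scrambled control lay on the slide of siLoxl1 and siLoxl2, and the series has no untreated cells. A difference between them thus does not tell which of the 2 groups departed from cells given a scrambled siRNA.

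Lysyl oxidases are secreted copper enzymes that oxidise lysine residues of collagen and elastin, the step from which the cross-links of the extracellular matrix form. Loxl1 is best known for its part in elastic fibres, and Loxl2 for collagen cross-linking and the assembly of basement membrane collagen. Cells also carry sensors for double-stranded RNA, and these can start a type I interferon response, in which secreted interferon acts through its receptor, STAT proteins and IRF9 on a large set of antiviral genes.

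The targeted genes were read by 60-base probes, and the check of both knockdowns rests on all of them. Shown are the 2 for Loxl1 and 2 of the 3 for Loxl2, namely those with a reading frame free of stop codons. They are printed 5′ to 3′ in lower case with no part marked, with their positions in mm9, the mouse build named in the file headers. The Loxl1 probes lie on the minus strand of chromosome 9, the first at chr9:58138570-58138629 and the second at chr9:58145451-58145510, and the Loxl2 probes on the plus strand of chromosome 14, the first at chr14:70092141-70092200 and the last at chr14:70090017-70090076. The second Loxl2 probe, at chr14:70095254-70095313, is not printed, but it was the brightest and stands for the gene below.
Loxl1 first probe: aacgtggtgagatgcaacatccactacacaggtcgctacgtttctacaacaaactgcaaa
Loxl1 second probe: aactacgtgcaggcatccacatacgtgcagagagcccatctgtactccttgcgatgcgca
Loxl2 first probe: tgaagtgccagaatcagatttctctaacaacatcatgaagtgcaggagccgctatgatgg
Loxl2 last probe: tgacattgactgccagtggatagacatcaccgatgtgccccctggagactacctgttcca

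A level here is a log2 signal minus the log2 75th percentile of its array, and a difference is siLoxl1 minus siLoxl2 in log2 units, printed ± its standard error from limma (n = 4 arrays per group). A gene passed when its limma p-value, adjusted by Benjamini-Hochberg over all genes tested, was under 0.05. The 8 arrays shared slide 2, with 60.4% to 63.1% of 59305 non-control spots well above background and 0 saturated spots. Each group filled 1 row of the slide, so row and group cannot be told apart. Along the first principal component (30.8% of the variance) the groups were separate, with siLoxl1 replicate 4 at −29.0, the other siLoxl1 arrays at −12.7 to −11.6 and the siLoxl2 arrays at 15.9 to 17.1.

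Loxl1 was clearly lower after its own siRNA. At the first probe its level was 4.54, 4.54, 4.60 and 4.72 in siLoxl1 replicates 1 to 4 and 5.65, 5.80, 5.79 and 5.78 in siLoxl2. The groups did not overlap, and the difference was −1.15 ± 0.06 (limma adjusted p = 0.000199), which left 44.9% of the siLoxl2 level. At the second probe the level was 2.85, 2.76, 2.69 and 2.87 in siLoxl1 and 4.06, 4.07, 4.02 and 4.09 in siLoxl2, a difference of −1.27 that left 41.5%. Both probes reached p = 0.0286 in an exact two-sided permutation test, the lowest p possible with 4 against 4 arrays.

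Loxl2 was lower after its own siRNA by a smaller margin, and its call depended on the probe. The second, brightest probe read 5.59, 5.81, 5.61 and 5.73 in siLoxl1 and 5.25, 5.58, 5.35 and 5.35 in siLoxl2. Its difference of 0.30 ± 0.08 missed the threshold in the fit over genes (limma adjusted p = 0.0536). The first probe read 3.20, 3.43, 3.39 and 3.44 in siLoxl1 and 2.98, 2.99, 2.91 and 3.06 in siLoxl2, and the last read 4.00, 4.04, 4.00 and 4.14 in siLoxl1 and 3.67, 3.74, 3.62 and 3.77 in siLoxl2. In a fit over all probes kept, the first and last probes passed, at 0.38 ± 0.06 and 0.34 ± 0.05 (limma adjusted p = 0.0176 and 0.0143). At each of the 3 probes every siLoxl2 array lay below every siLoxl1 array (exact two-sided permutation p = 0.0286), and siLoxl2 held 81.0%, 76.8% and 78.7% of the siLoxl1 level at the second, first and last probe. With the probes of a gene averaged the difference was 0.34 and passed (limma adjusted p = 0.015), and it also passed without siLoxl2 replicate 2, at 0.37 (limma adjusted p = 0.0357). It passed as well over genes above background on all 8 arrays (0.0491), with a trended robust prior (0.0121) and with replicate number as a block (0.0428). The difference did not pass in the other 7 fits without 1 array (limma adjusted p = 0.0731 to 0.127) or with quantile normalization (0.0824). Nor did it pass in the authors' value table (0.0831), with the percentile over detected probes (0.0823), with normexp background correction (0.0552), with no filter (0.101) or in a fit of all 16 arrays (0.275).

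**Figure D1:**
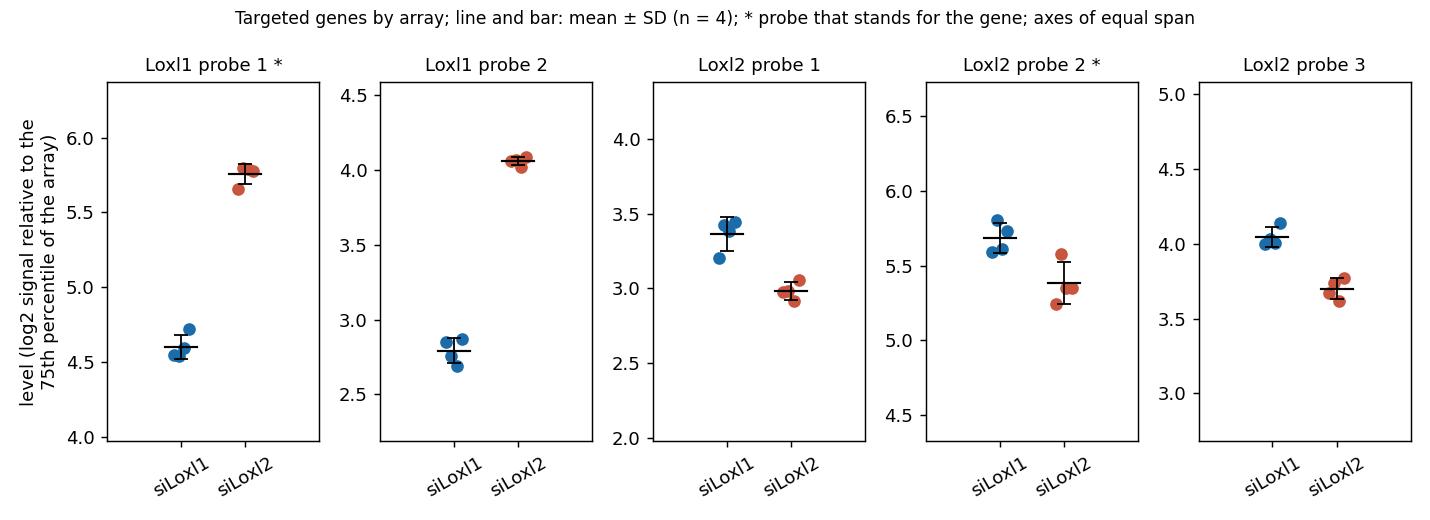
Levels of the targeted genes on each array (log2 signal minus the array's log2 75th percentile) at the 2 Loxl1 and 3 Loxl2 probes, with points for arrays and lines with bars for mean ± SD of 4 arrays; all panels span the same log2 range. The Loxl1 groups lie over 1 log2 unit apart, and the Loxl2 groups lie 0.30 to 0.38 apart; Loxl2 probe 3 is the last probe of the text.

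The other lysyl oxidases had smaller differences than Loxl1. Loxl4 read 0.66, 0.64, 0.62 and 0.71 in siLoxl1 and 1.14, 0.85, 0.98 and 1.02 in siLoxl2, a difference of −0.34 ± 0.06 (limma adjusted p = 0.0198). Its other probe gave −0.18 and did not pass in the fit over probes (limma adjusted p = 0.081), and the gene's call was lost without siLoxl1 replicate 2 or 3 or siLoxl2 replicate 3 or 4 (limma adjusted p up to 0.0621). Lox, at −0.15 ± 0.09, and Loxl3, at 0.09 ± 0.04, did not pass (limma adjusted p = 0.327 and 0.234). Of the 5 family members 2, Loxl1 among them, were lower and 0 higher (2.73% and 6.33% of all genes tested were).

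Across the array, 2039 of 22519 genes tested passed (9.05%), of which 1425 were higher in siLoxl1 (6.33% of genes tested) and 614 lower (2.73%). Most differences were small: the median absolute difference of the genes that passed was 0.26, and the median difference of all genes tested was 0.04. Large differences lay mostly on the lower side, with 99 genes lower by at least 1 log2 unit and 4 higher, and 232 lower and 50 higher by at least 0.5. The share of higher genes among those that passed was 69.9% as scaled here, 47.4% (675 higher, 749 lower) when the percentile was taken over detected probes, and 56.4% with quantile normalization. Without siLoxl2 replicate 4 the number that passed was 636, without siLoxl1 replicate 2 it was 683, and without any other single array it was 863 to 1447. With the replicate number added to the fit as a block, 961 passed (523 higher, 438 lower). Groups did not overlap for 20.5% of genes, 14.9% with siLoxl1 higher and 5.60% with siLoxl1 lower.

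**Figure D2:**
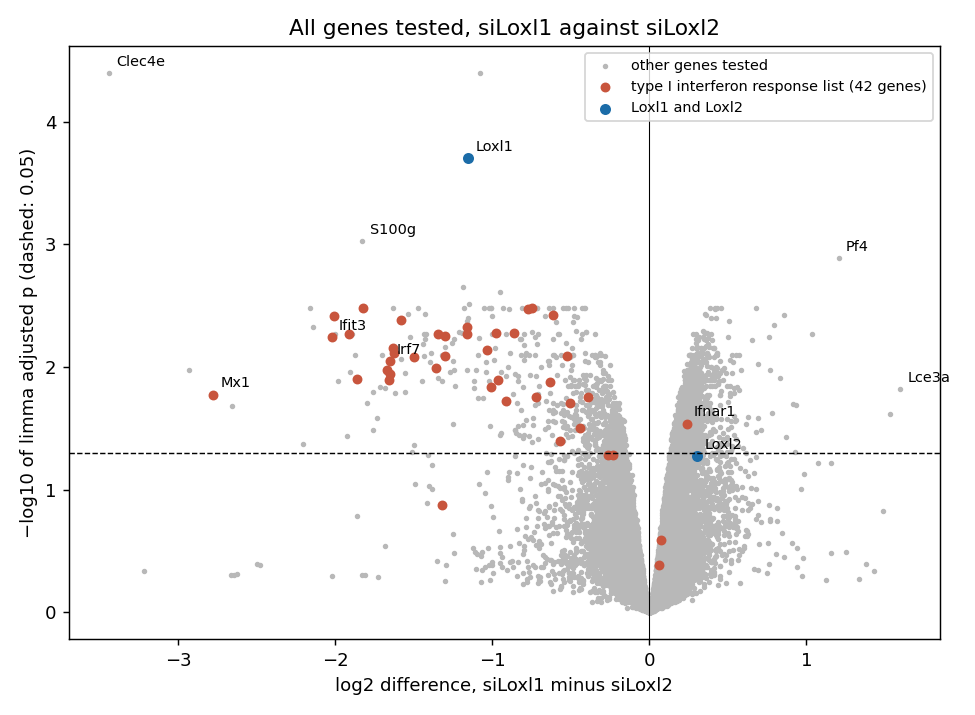
Difference in log2 units (siLoxl1 minus siLoxl2) against −log10 of the limma adjusted p for all 22519 genes tested, with the interferon list and the targeted genes coloured and the dashed line at 0.05. The interferon genes that passed lie to the left apart from Ifnar1, and Clec4e has the lowest difference, at −3.44.

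Type I interferon response genes were lower in siLoxl1 than in siLoxl2. Of 42 list members, all tested, 36 were lower (2.73% of all genes tested were), 1 was higher and 5 did not pass, and the groups did not overlap for 39 (20.5% of all genes, 5.60% with siLoxl1 lower). The median difference of the list was −1.09 beside 0.04 for all genes tested, and 22 of the 99 genes lower by at least 1 were list members (22.2%). Outside the list, 578 of 22477 genes were lower (2.57%). The mean level over the list was 1.19, 1.35, 1.50 and 0.90 in siLoxl1 replicates 1 to 4 and 2.09, 2.33, 2.48 and 2.43 in siLoxl2. Every siLoxl1 array lay below every siLoxl2 array, with siLoxl1 replicate 4 the lowest and siLoxl2 replicate 1 the lowest of its group. In these bulk samples, fewer responding cells and less RNA per cell cannot be told apart.

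Among the ligands, Ifnb1, which encodes interferon beta, read −6.36, −6.02, −3.99 and −6.08 in siLoxl1 and −4.38, −4.15, −3.87 and −4.75 in siLoxl2. It was well above background on 1 array of siLoxl1 and on 4 of siLoxl2, siLoxl1 replicate 3 lay within the siLoxl2 range, and the gene did not pass (limma adjusted p = 0.133). Of 20 probes for 16 interferon genes, 9 were well above background on all 8 arrays and 7 on none. Ifna7, an interferon alpha gene with close relatives, was above background in siLoxl1 only, at least 1.58-fold higher there as processed here (limma adjusted p = 0.0324). Its call was lost with normexp correction and without 7 of the 8 arrays, siLoxl1 replicate 2 being the exception (limma adjusted p up to 0.0771).

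The receptor chains did not share the pattern. Ifnar1, a chain of the receptor for interferon alpha and beta, was the list member that was higher in siLoxl1, at 2.57, 2.43, 2.42 and 2.41 against 2.28, 2.17, 2.20 and 2.23 in siLoxl2 (0.24 ± 0.05, limma adjusted p = 0.029). Its other probes gave differences as low as 0.06, their mean (0.15) did not pass, and the call was lost without siLoxl1 replicate 2 or 3 or siLoxl2 replicate 2, 3 or 4 (limma adjusted p up to 0.0732). Ifnar2, the partner chain, stood at 0.06 ± 0.04 (limma adjusted p = 0.409).

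Of 6 signalling and transcription factors 4 were lower. Irf7, a factor that amplifies interferon transcription, read −0.65, −0.39, −0.07 and −0.83 in siLoxl1 and 0.60, 1.12, 1.48 and 1.48 in siLoxl2, a difference of −1.65 ± 0.23 (limma adjusted p = 0.00898). Stat2 read 3.53, 3.48, 3.73 and 3.28 in siLoxl1 and 4.21, 4.41, 4.45 and 4.41 in siLoxl2 (−0.86 ± 0.10). The groups of both genes lay apart. Irf9, which binds DNA together with STAT2, differed by −0.39 ± 0.07. The call of Irf9 was lost without siLoxl1 replicate 2 or siLoxl2 replicate 4 (limma adjusted p up to 0.055). Irf1 stood at −0.26 ± 0.07 and Irf3, which acts directly below the RNA sensors, at 0.07 ± 0.04, and neither passed (limma adjusted p = 0.0526 and 0.259).

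All 5 sensors of foreign nucleic acid were lower. Ifih1, which encodes the double-stranded RNA sensor MDA5, read 1.49, 1.46, 1.75 and 1.32 in siLoxl1 and 2.25, 2.50, 2.59 and 2.58 in siLoxl2 (−0.97 ± 0.11, limma adjusted p = 0.00533). Tlr3, the endosomal receptor for double-stranded RNA, read −2.98, −3.02, −3.12 and −2.98 in siLoxl1 and −2.18, −2.46, −2.24 and −2.14 in siLoxl2 (−0.77 ± 0.07, limma adjusted p = 0.00335). The groups were separate for each. Ddx58, which encodes RIG-I, differed by −0.63 ± 0.10, Eif2ak2, the kinase PKR, by −0.52 ± 0.07, and Zbp1 by −1.01 ± 0.17.

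The antiviral effectors held the widest differences. Mx1, a dynamin-like GTPase that blocks viral particles, read −5.16, −3.75, −3.84 and −5.99 in siLoxl1 and −2.34, −1.92, −1.66 and −1.72 in siLoxl2. The siLoxl1 arrays were spread over more than 2 log2 units, and the difference of −2.78 ± 0.48 (6.86-fold, limma adjusted p = 0.0168) lost its call without siLoxl2 replicate 4 (limma adjusted p = 0.0521). With normexp background correction the difference of Mx1 was −1.52 and passed. Mx2 was 4.01-fold lower, with −1.09, −0.86, −0.78 and −1.72 in siLoxl1 and 0.64, 0.85, 1.04 and 1.04 in siLoxl2. Ifit3, of a family that binds foreign RNA, read 2.94, 3.44, 3.35 and 2.38 in siLoxl1 and 4.66, 5.12, 5.18 and 5.24 in siLoxl2, a 4.06-fold difference (−2.02 ± 0.24, limma adjusted p = 0.00575). Its near-identical copy Ifit3b differed by −2.14 ± 0.23, and the probes may not separate these copies. Replicate 4 was the lowest siLoxl1 array for all 4 of these genes.

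The Ifit and Ifi44 family was lower in all 5 members, among them Ifit1 (−1.65 ± 0.25) and Ifi44 (−1.67 ± 0.24). Ifi35, at −0.72 ± 0.13, lost its call without siLoxl1 replicate 2 or siLoxl2 replicate 4 (limma adjusted p up to 0.0537). All 5 genes of the list from the oligoadenylate synthetase family, named for enzymes that sense double-stranded RNA, were lower. Oas3 read −4.24, −4.50, −4.46 and −4.68 in siLoxl1 and −3.13, −2.61, −2.45 and −2.40 in siLoxl2 (−1.82 ± 0.17, or −0.999 with normexp correction), and Oasl2 differed by −1.91 ± 0.22.

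Isg15, a ubiquitin-like modifier, read 5.58, 5.61, 5.96 and 5.09 in siLoxl1 and 6.54, 6.92, 7.15 and 7.07 in siLoxl2 (−1.36 ± 0.20, limma adjusted p = 0.0102), and Usp18, the protease that removes it, differed by −1.58 ± 0.16. Of the enzymes that act on nucleotides, Rsad2 (viperin) differed by −1.66 ± 0.26 and its genomic neighbour Cmpk2 by −1.86 ± 0.29. All 5 interferon-inducible GTPases of the list were lower, from Irgm1 at −0.75 ± 0.06 to Gbp3 at −1.63 ± 0.20. Rtp4 (−1.50 ± 0.20) and Xaf1 (−1.16 ± 0.12) were lower as well.

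The membrane proteins that block viral entry or release were lower by less. Bst2 (tetherin) differed by −0.91 ± 0.17, Ifitm1 by −0.57 ± 0.14 and Ifitm3 by −0.44 ± 0.10. The call of Bst2 was lost without siLoxl1 replicate 2 or siLoxl2 replicate 4 (limma adjusted p up to 0.056), that of Ifitm3 without siLoxl1 replicate 1, 2 or 4 or siLoxl2 replicate 3 or 4 (up to 0.0824), and that of Ifitm1 without any array but siLoxl2 replicate 1 (up to 0.0992). Over the whole list, 29 of the 36 lower genes kept their call without each of the 8 arrays in turn. Between 29 (without siLoxl2 replicate 4) and 36 list members were lower in those fits.

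**Figure D3:**
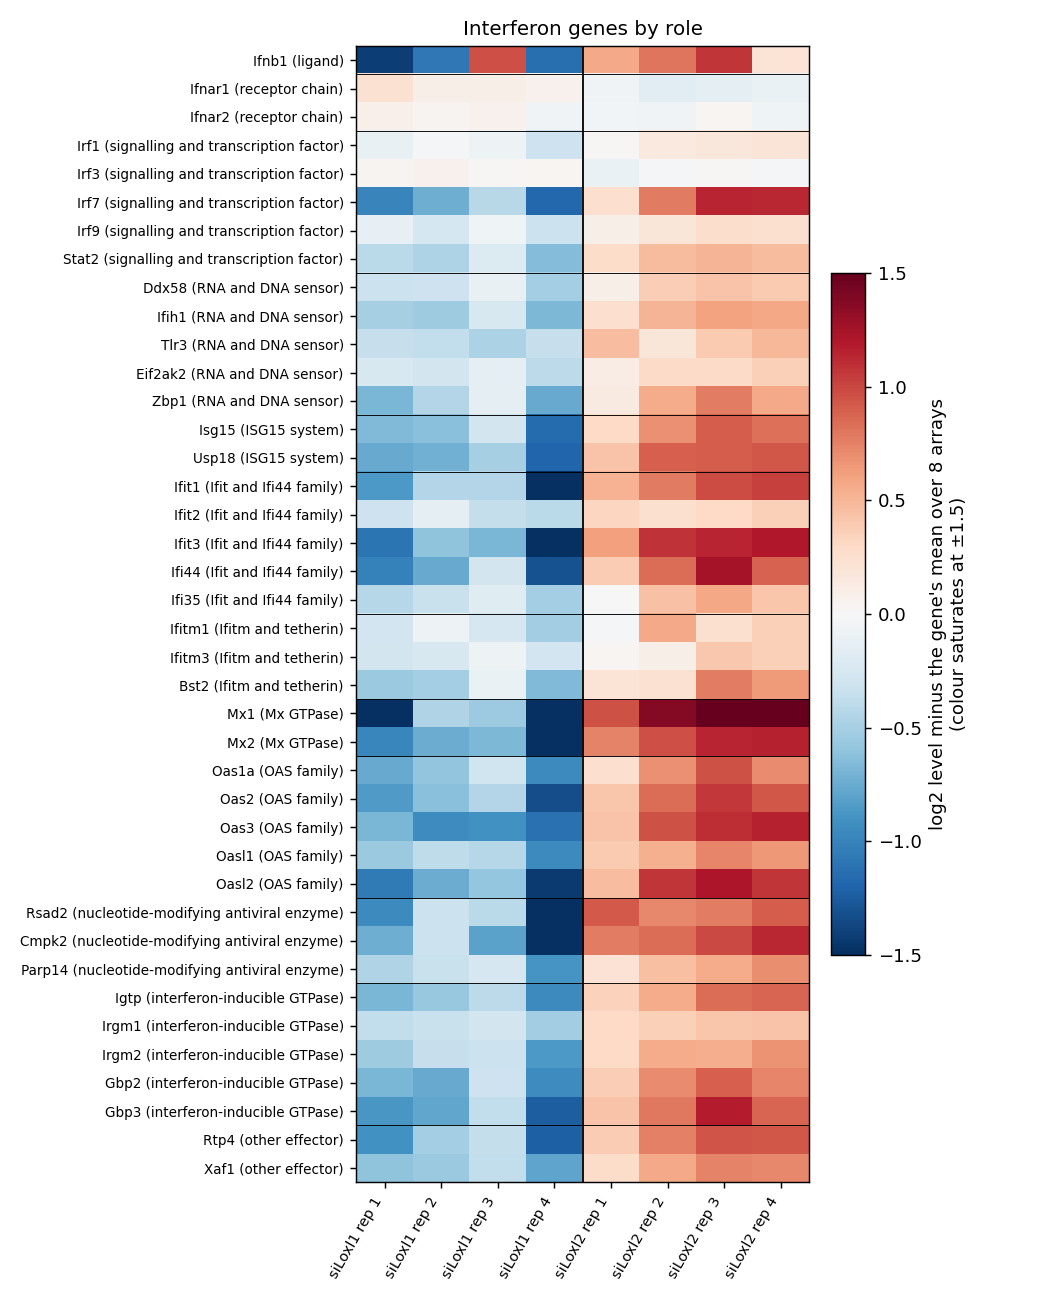
Level of 40 of the 42 interferon genes on the 8 arrays as log2 difference from the mean of each gene over the 8 arrays, blue for lower and red for higher, grouped by role. The 35 genes shown that were lower lie below their mean on every siLoxl1 array and above it on every siLoxl2 array except single arrays of Ifi35 and Ifitm1, while Ifnar1, Ifnar2 and Irf3 are near white throughout.

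The promoters of some of these genes are shown for a short motif that about as many members with a window held as lacked. In RefSeq promoter windows (GRCm38.p6, 250 bases before to 50 bases after the start), the core of the interferon-stimulated response element, written here as GAAA, any 2 bases and GAAA on either strand, was found in 464 of 12369 genes tested that had a window (3.75%). It was found in 17 of the 33 interferon genes with a window (51.5%), while the windows of Irf7, Ifi44, Oasl2 and Cmpk2 held no match. The list was chosen as interferon response genes, so this share is not independent of that choice. All matches were among the 28 with a window that were lower. The members with a window that were not lower were Ifnb1, the receptor chains Ifnar1 and Ifnar2, and the factors Irf1 and Irf3, so role and call cannot be told apart here. A further 6 motifs were searched on both strands. The NF-kB motif (GGGA, any 2 bases and TTCC) was found in 5 of the 33 interferon genes (15.2%, beside 1.69% of all genes with a window), the AP-1 motif TGAGTCA in 6 (18.2%, beside 4.85%), CCAAT in 8 (24.2%, beside 42.3%), the E-box CACGTG in 0 (beside 10.9%), the cell cycle motif TTTGAA in 6 (18.2%, beside 14.96%) and the ATF4 element in 3 (9.1%, beside 2.96%). Below are the 250 bases before the start of some lower genes, picked because they held a match. They are printed 5′ to 3′ on the strand of the gene, with matches in capitals. Overlapping matches run together. A match describes the letters and is not evidence that a factor was bound.
Ifit3, chr19:34583279-34583528, plus strand: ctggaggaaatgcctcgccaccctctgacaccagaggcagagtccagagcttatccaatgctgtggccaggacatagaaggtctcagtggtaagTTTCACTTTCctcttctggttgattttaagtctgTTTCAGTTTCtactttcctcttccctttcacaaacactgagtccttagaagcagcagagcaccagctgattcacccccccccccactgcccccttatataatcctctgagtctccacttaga
Oas3, chr5:120777660-120777909, minus strand: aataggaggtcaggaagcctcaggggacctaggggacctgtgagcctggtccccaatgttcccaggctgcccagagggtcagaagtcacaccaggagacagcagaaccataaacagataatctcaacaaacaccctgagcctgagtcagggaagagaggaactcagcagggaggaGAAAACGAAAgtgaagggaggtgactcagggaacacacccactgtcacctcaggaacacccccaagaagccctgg
Isg15, chr4:156200819-156201068, minus strand: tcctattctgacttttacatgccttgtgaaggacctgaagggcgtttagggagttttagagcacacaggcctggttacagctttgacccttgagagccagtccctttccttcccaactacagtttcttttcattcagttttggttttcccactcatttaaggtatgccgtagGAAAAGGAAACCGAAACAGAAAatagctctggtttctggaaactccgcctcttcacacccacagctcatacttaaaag
Stat2, chr10:128270248-128270497, plus strand: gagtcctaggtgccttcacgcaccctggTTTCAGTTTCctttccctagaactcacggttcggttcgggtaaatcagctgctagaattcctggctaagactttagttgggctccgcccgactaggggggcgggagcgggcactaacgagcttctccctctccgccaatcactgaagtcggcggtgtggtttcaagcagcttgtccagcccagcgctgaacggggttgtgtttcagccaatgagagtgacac

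On the other slide the interferon list stood higher still. Its mean level was 4.26 to 4.40 on the 4 scr arrays and 4.43 to 4.53 on the 4 siLox arrays, above all 8 arrays of siLoxl1 and siLoxl2. Those arrays were scanned on another day with another scanner model, so their distance from slide 2 cannot be told apart from the slide and no test was made.

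**Figure D4:**
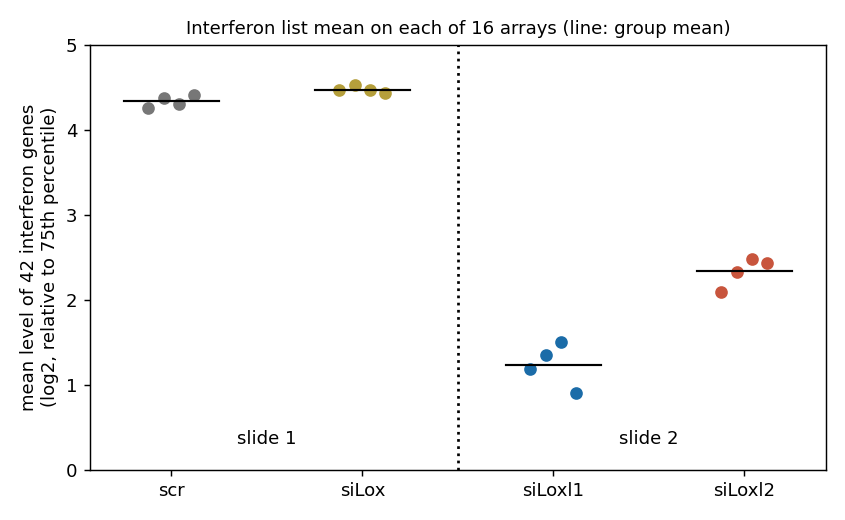
Mean level of the 42 interferon genes (log2 signal minus the array's log2 75th percentile) on each of the 16 arrays, with a line for the mean of each group. On slide 2 the siLoxl1 arrays lie at 0.90 to 1.50 and the siLoxl2 arrays at 2.09 to 2.48, and the slide 1 arrays lie at 4.26 to 4.53.

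Genes of antigen presentation on MHC class I went the same way. Of 13 members tested 8 were lower (2.73% of all genes tested were) and 0 higher, with a median difference of −0.34. Psmb8, an inducible catalytic subunit of the immunoproteasome, read 0.08, 0.31, 0.52 and −0.15 in siLoxl1 and 1.01, 1.54, 1.71 and 1.46 in siLoxl2 (−1.24 ± 0.18, limma adjusted p = 0.0105). Psmb9, another such subunit, differed by −1.10 ± 0.16, and Tap1, which carries peptides into the endoplasmic reticulum, by −0.73 ± 0.09. The class I heavy chains H2-K1 and H2-D1, which belong to a family of close copies, differed by −0.34 ± 0.06 each, and B2m, at −0.14 ± 0.05, did not pass (limma adjusted p = 0.0989). The call of H2-K1 was lost without siLoxl2 replicate 4 (limma adjusted p = 0.0537) and that of H2-D1 without siLoxl1 replicate 1, 3 or 4 or siLoxl2 replicate 2, 3 or 4 (up to 0.0653). Without siLoxl2 replicate 4 the list had 4 lower members, the fewest of the 8 fits without 1 array.

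Chemokines went both ways, with Cxcl10 and Ccl5 lower and Pf4 and Ccl9, given below, higher. Of 23 cytokines and NF-kB targets tested 3 were lower (2.73% of all genes tested were) and 0 higher. Cxcl10, a chemokine that interferon also induces, read 2.40, 2.72, 2.62 and 1.99 in siLoxl1 and 3.95, 3.80, 4.04 and 4.08 in siLoxl2, a 2.91-fold difference (−1.54 ± 0.15, limma adjusted p = 0.00373). Ccl5, a T cell attracting chemokine, differed by −0.63 ± 0.11. In each of the 8 fits without 1 array 2 members of the list were lower. On the list of interleukin 1 and interleukin 33 genes 1 of 15 was higher and 2 were lower (6.33% and 2.73% of all genes tested were). Il1rn, the interleukin 1 receptor antagonist, was above background in siLoxl2 only and at least 2.00-fold higher there, a bound not reached with normexp correction (−0.32). Its call was lost without siLoxl1 replicate 2 or 3 and without each siLoxl2 array (limma adjusted p up to 0.0854).

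Of 18 complement and acute phase genes 2 were higher and 3 lower (6.33% and 2.73% of all genes tested were). Complement factor B (Cfb) read −0.57, −0.40, −0.26 and −0.87 in siLoxl1 and 0.20, 0.62, 0.97 and 0.58 in siLoxl2 (−1.12 ± 0.18, limma adjusted p = 0.0131). S100a8, a subunit of calprotectin, went the opposite way and was 1.60-fold higher in siLoxl1, at 2.58, 2.46, 2.35 and 2.40 against 1.82, 1.79, 1.69 and 1.77 (0.68 ± 0.06, limma adjusted p = 0.00332). The groups of both genes lay apart. Without 1 array 1 to 3 genes of the list were lower and 1 or 2 higher.

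The lowest difference among genes above background on all 8 arrays was that of Clec4e, which encodes the myeloid lectin receptor Mincle. It read −4.94, −4.46, −5.03 and −4.81 in siLoxl1 and −1.23, −1.35, −1.57 and −1.32 in siLoxl2, a 10.9-fold difference (−3.44 ± 0.13, limma adjusted p = 4.01e-05). S100g, the calcium-binding protein calbindin-D9k, read −3.22, −3.34, −3.78 and −3.50 in siLoxl1 and −1.67, −1.57, −1.65 and −1.65 in siLoxl2 (−1.83 ± 0.11, limma adjusted p = 0.000943). Both gaps were far wider than the spread within either group. With normexp background correction they were smaller, at −2.17 for Clec4e and −1.13 for S100g, and both passed. Tgtp2, an interferon-inducible GTPase with a near-identical copy, at −1.88 ± 0.25, and Phf11b, at −1.72 ± 0.29, were also among the 15 lowest, and the other members of these 15 were Ifit3b and interferon list genes given above.

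Some genes were above background on all 4 siLoxl2 arrays and on none of siLoxl1. They entered the test only through the group in which they were high, as did Il1rn, Ifna7 and the genes of the opposite direction below. Their p-values are thus not independent of that filter. Cd86, a costimulatory ligand of antigen-presenting cells, was at least 2.95-fold higher in siLoxl2 (limma adjusted p = 0.00333) and Ces1a, a carboxylesterase of a family with close copies, at least 1.49-fold (limma adjusted p = 0.0114). Gbp4 (at least 2.18-fold), Ddx60 (at least 1.64-fold), Fcgr1 (at least 1.59-fold) and Ostn (at least 2.02-fold) also passed, and each lost its call without siLoxl2 replicate 3 or 4 (limma adjusted p up to 0.0623, 0.0857, 0.0593 and 0.104 over the fits without 1 array). Gbp4 also lost it without siLoxl2 replicate 2, Fcgr1 without siLoxl1 replicate 2, Ddx60 without any other array but siLoxl1 replicate 1, and Ostn without any siLoxl1 array. These bounds set the siLoxl2 mean against the higher of the siLoxl1 signal and the lowest signal well above background on the array. They hold only for the background subtraction used here, as the differences with normexp correction were smaller than the bounds. In the opposite direction Klk11 (at least 1.49-fold), Cdh22 (at least 1.23-fold) and Spata21 (at least 1.08-fold) were above background in siLoxl1 only. With normexp background correction the fitted difference of Cd86 was −0.53 beside −2.16 here, and those of Gbp4, Ddx60 and Il1rn were −0.50, −0.34 and −0.32. These 4 passed, while Ces1a, Fcgr1, Ostn, Klk11, Cdh22, Spata21 and Ifna7 did not. The call of Cd86 was lost in a fit of all 16 arrays. Klk11 lost its call without siLoxl1 replicate 2 or siLoxl2 replicate 1, 2 or 3, Cdh22 without each of the 8 arrays and Spata21 without siLoxl2 replicate 4 (limma adjusted p up to 0.0665, 0.0898 and 0.0523).

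Higher differences were smaller. Pf4, the platelet chemokine CXCL4, read 0.99, 0.82, 0.86 and 0.84 in siLoxl1 and −0.29, −0.51, −0.15 and −0.36 in siLoxl2, a 2.31-fold difference (1.21 ± 0.08, limma adjusted p = 0.0013). Lce3a, a gene of the cornified envelope of skin, read −0.61, −1.17, −1.57 and −1.92 in siLoxl1 and −2.78, −2.65, −3.29 and −2.94 in siLoxl2 (1.60 ± 0.27, limma adjusted p = 0.0152), with a wide spread within siLoxl1. Bst1 (0.80 ± 0.09), an ectoenzyme that makes cyclic ADP-ribose, Pla2g7 (0.76 ± 0.09), a lipase of platelet-activating factor, and Ccl9 (0.65 ± 0.08), a chemokine, kept their calls without each array in turn. So did Sirpb1b, at 0.83 ± 0.13, whose second probe gave 0.34, while the other Pla2g7 probe gave 0.15 and the mean of its probes 0.45. With normexp correction Sirpb1b stood at 0.44, Mest at 0.37, Ube2ql1 at 0.25, Hhip at 0.29 and Fras1 at 0.21, and Fras1 did not pass. Chd7, a chromatin remodeller, differed by 0.58 ± 0.09, Mest by 0.57 ± 0.10, Tmem179 by 0.56 ± 0.07, Cd34 by 0.54 ± 0.09, Ube2ql1 by 0.54 ± 0.09 and Bcl2l15 by 0.53 ± 0.07. The other Mest probe gave 0.37, and the probes of Bcl2l15 gave differences as low as 0.30. Fras1 (0.57 ± 0.14) lost its call without each of the 8 arrays and Hhip (0.54 ± 0.12), a hedgehog-binding protein, without any array but siLoxl1 replicate 2 and siLoxl2 replicate 1 (limma adjusted p up to 0.1 and 0.0853).

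Several of the genes with wide differences (Clec4e, Cd86, Fcgr1, Pf4, Sirpb1b) are known from myeloid cells, so the leukocyte markers are given for the whole list. Of 17 leukocyte and macrophage markers 16 were well above background and tested. Of these 1 was lower and 0 higher (2.73% and 6.33% of all genes tested were). In limma 8 had an unadjusted p under 0.05, as did 6169 of all 22519 genes tested. The differences ran from −0.27 to 0.30 with a median of −0.03. The mean level of the list was −0.51 to −0.40 on the siLoxl1 arrays and −0.52 to −0.36 on the siLoxl2 arrays, which overlap. Ptprc, the pan-leukocyte antigen CD45, differed by 0.04 ± 0.13 and Csf1r by 0.14 ± 0.06, and neither passed. Cd68 was the lower member, at −0.27 ± 0.07, and its call was lost without each of the 8 arrays in turn (limma adjusted p up to 0.111). The part of leukocytes in the results above was not tested.

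All 12 fibroblast markers, among them Col1a1, Pdgfra and Thy1, were well above background on all 8 arrays. In limma 0 passed in either direction (3 at an unadjusted p under 0.05, median 0.02). Of all 22519 genes tested, 6169 had an unadjusted p under 0.05, which also stands beside such counts below. Detection alone does not set this list apart, as 16 of 17 leukocyte, 8 of 10 mesothelial and 9 of 12 pericyte and smooth muscle markers were also tested. The mean level of the fibroblast list was 5.04 to 5.14 over the 8 arrays. That of the pericyte and smooth muscle list was 3.89 to 4.01, and that of the mesothelial list 0.09 to 0.36. Of 12 epithelial markers 5 were tested and 0 passed (1 at an unadjusted p under 0.05), and Epcam, Cdh1 and the surfactant genes Sftpc, Sftpb and Sftpa1 were not well above background. Of 11 endothelial markers 7 were tested, and 2 of these were lower (2.73% of all genes tested were). Vwf was lower, at −2.60, −2.74, −2.50 and −2.57 in siLoxl1 and −1.95, −2.27, −2.03 and −2.16 in siLoxl2 (−0.50 ± 0.08), and so was Tek (−0.86 ± 0.19), whose call was lost without siLoxl1 replicate 1 or 2 or siLoxl2 replicate 1, 3 or 4 (limma adjusted p up to 0.082). With normexp correction Vwf stood at −0.30 and passed, and Tek at −0.23 did not. Pecam1, Cdh5, Kdr, Flt1 and Egfl7 did not pass, and Tie1, Emcn, Cldn5 and Erg were not well above background. Of 8 mesothelial markers tested 1 was higher (0 in the fits without 1 array) and of 9 pericyte and smooth muscle markers 0 passed (1 at an unadjusted p under 0.05).

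Genes of cell division leaned the other way, with small differences. Of 24 mitotic genes 8 were higher (6.33% of all genes tested were) and 0 lower, with a median of 0.16. Cenpe, a kinetochore motor, read 3.67, 3.74, 3.76 and 3.68 in siLoxl1 and 3.49, 3.28, 3.33 and 3.34 in siLoxl2 (0.35 ± 0.05, limma adjusted p = 0.0119). Kif20a, a kinesin of cytokinesis, differed by 0.32 ± 0.05 and Bub1, a spindle checkpoint kinase, by 0.29 ± 0.04. Of 27 genes of the G1/S transition and DNA replication 4 were higher and 0 lower, among them Rrm2, a subunit of ribonucleotide reductase, at 0.31 ± 0.04. With the percentile over detected probes 5 mitotic genes and 3 replication genes were higher. Without 1 array the mitotic count was 4 (without siLoxl2 replicate 4) to 6, and the replication count 2 (without siLoxl1 replicate 2) to 4.

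Endoplasmic reticulum chaperones were lower in part. On the unfolded protein response list 6 of 21 were lower (2.73% of all genes tested were) and 0 higher, with a median of −0.11. Pdia4, a protein disulfide isomerase, read 2.57, 2.62, 2.25 and 2.74 in siLoxl1 and 3.28, 3.21, 3.33 and 3.29 in siLoxl2 (−0.73 ± 0.10, limma adjusted p = 0.00794). Creld2, a secreted chaperone-like protein, differed by −0.28 ± 0.04. The count was 2 to 4 in the fits without 1 array, with 2 reached without siLoxl1 replicate 2. Of 22 amino acid response genes 0 were higher and 2 lower, and of 13 heat shock genes 0 were higher and 1 lower.

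On the lists of matrix genes, on which lysyl oxidases act, and of integrins, 0 to 3 members a list were higher and 0 to 2 lower, beside 6.33% and 2.73% of all genes tested. Of 15 fibrillar and associated collagens 2 were lower, and Col6a1, a chain of collagen VI, read 3.20, 3.25, 3.17 and 3.14 in siLoxl1 and 3.41, 3.49, 3.52 and 3.51 in siLoxl2 (−0.29 ± 0.04, limma adjusted p = 0.0106). Of 18 basement membrane collagens and laminins 1 was higher, and on the 23-gene list for collagen processing and cross-linking 2 were higher and 1 lower. Of 19 elastic fibre genes 1 was lower: Emilin1, a glycoprotein at the surface of elastic fibres, at −0.34 ± 0.06, whose call was lost without siLoxl1 replicate 2 or siLoxl2 replicate 4 (limma adjusted p up to 0.0557). Of 22 other matrix glycoproteins and proteoglycans 1 was higher and 1 lower. The higher one was Vcan, a large proteoglycan, at 0.33 ± 0.04, with 0.12 at its other probe. Fn1, fibronectin, named after its values were seen, read 8.25, 8.33, 8.28 and −2.60 in siLoxl1 and 8.21, 8.23, 8.25 and 8.22 in siLoxl2. It did not pass (−2.66 ± 2.34, limma adjusted p = 0.498), and without siLoxl1 replicate 4 its difference was 0.06. Of 21 matrix proteases and inhibitors 0 were higher and 1 was lower, and of 17 integrins 3 were higher and 2 lower, with at most 1 higher and 0 lower in the fits without 1 array. In those fits 1 or 2 collagens were lower, and 0 (without siLoxl1 replicate 2) to 2 genes of collagen processing were higher.

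Signalling genes of fibroblasts differed in single members, and of all genes tested 6.33% were higher and 2.73% lower. On the TGF-beta and BMP list 3 of 30 were higher and 2 lower, with Bmpr2, a BMP receptor, at 0.42 ± 0.07 and Fst, the activin-binding follistatin, at 0.35 ± 0.05 among the higher and Tgfb2 at −0.29 ± 0.05 among the lower. Of 30 growth factor ligands and receptors 7 were higher (6.33% of all genes tested were) and 0 lower, and 4 were higher with quantile normalization or the percentile over detected probes. Nrg1, a ligand of the ErbB receptors, read 1.98, 2.01, 2.04 and 2.05 in siLoxl1 and 1.60, 1.55, 1.60 and 1.64 in siLoxl2 (0.42 ± 0.04, limma adjusted p = 0.00332), and Egfr differed by 0.27 ± 0.04 at the brightest of 3 probes and by as little as 0.03 at another, and the mean of its probes (0.11) did not pass. The count of higher growth factor genes was 2 (without siLoxl1 replicate 2) to 5 without 1 array. On the Wnt and Notch list 2 of 22 were higher and 1 lower, with Lrp6, a Wnt co-receptor, at 0.37 ± 0.04 and 0.06 at its other probe (mean 0.21, passed). Of 21 immediate early genes 5 were higher and 1 lower. Egr2 read 0.17, 0.16, 0.04 and 0.08 in siLoxl1 and −0.18, −0.38, −0.30 and −0.35 in siLoxl2 (0.41 ± 0.06, limma adjusted p = 0.00837), and the list's higher count was 1 (without siLoxl1 replicate 2) to 3 without 1 array.

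The medians of further lists ran from −0.01 to 0.15, beside 0.04 for all genes tested. The counts below stand beside 6.33% higher and 2.73% lower among all genes tested. Those at an unadjusted p under 0.05 stand beside 6169 of all 22519 genes tested. Of 20 contractile genes of myofibroblasts 1 was lower, of 15 YAP and SRF targets 0 passed (2 at an unadjusted p under 0.05), and of 18 lung fibroblast identity genes 1 was lower. Of 26 cholesterol genes 3 were higher and 1 lower, and of 27 hypoxia and glycolysis genes 3 were higher and 0 lower. Of 22 p53 targets 1 passed in each direction, of 24 redox genes 2 were higher, of 14 prostaglandin genes 1 was higher and of 21 oxidative phosphorylation genes 2 were higher (median 0.10). On the RNA interference list, whose products process and load siRNAs, 3 of 13 were higher and 0 lower (median 0.15), and 0 were higher with the percentile over detected probes. In the fits without 1 array 0 or 1 of them was higher. Of 24 ribosomal protein genes and of 20 lysosomal genes 0 passed, with 2 of each list at an unadjusted p under 0.05. Over the lists of this paragraph, the counts in the fits without 1 array were 0 to 3, and the higher cholesterol genes (2 or 3) and the lower fibroblast identity gene were the counts that did not fall to 0.

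**Figure D5:**
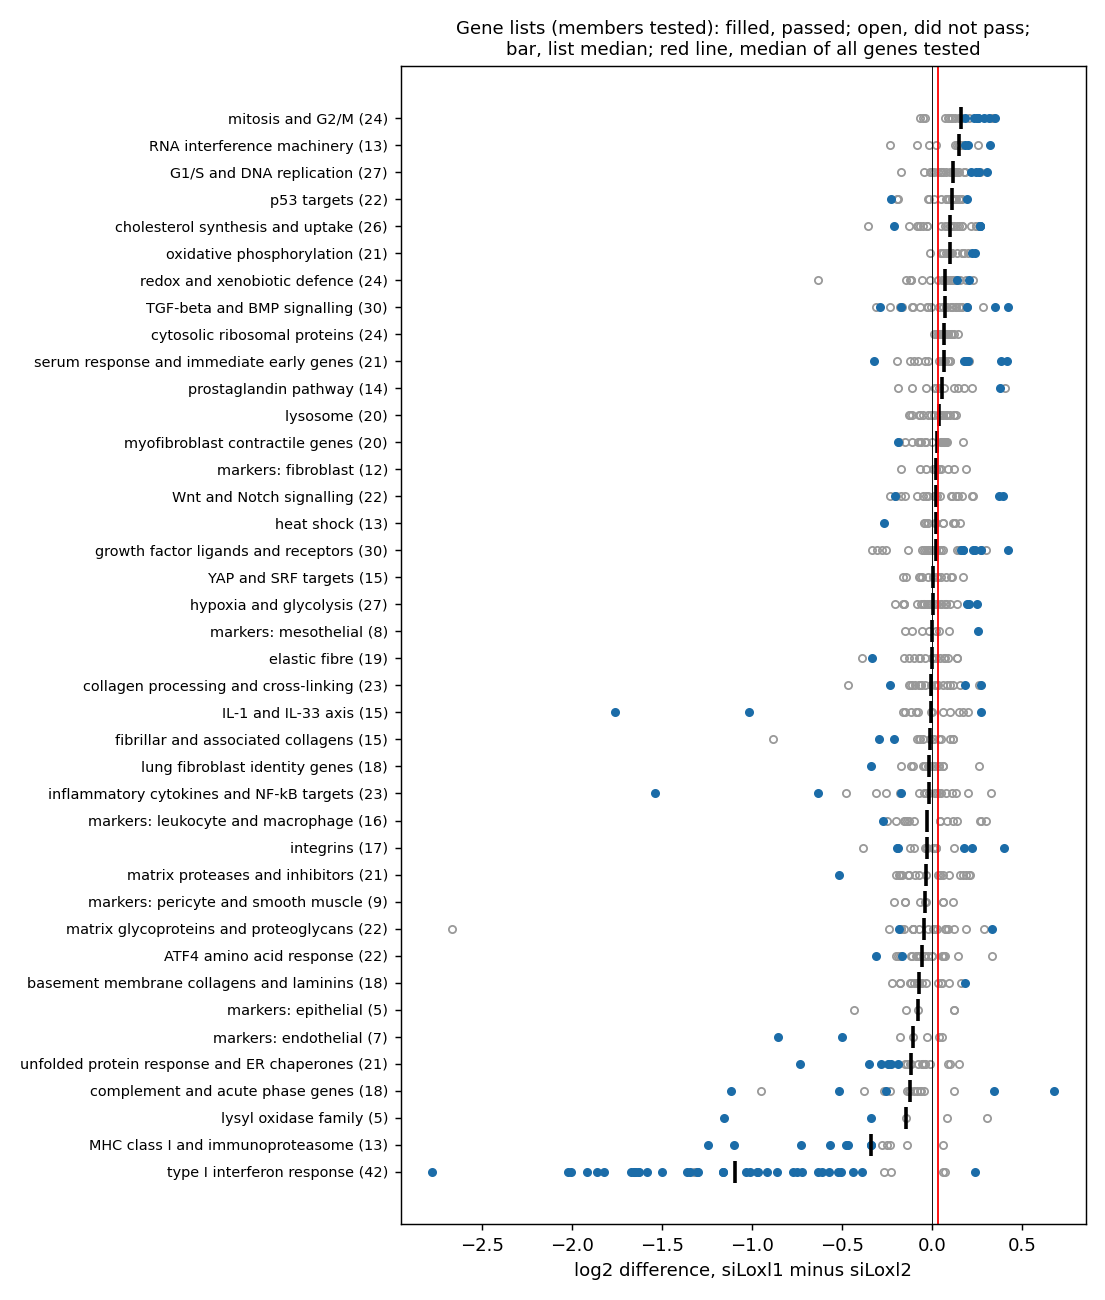
Difference in log2 units (siLoxl1 minus siLoxl2) of each tested member of the 40 lists, with filled points for members that passed, a bar for the median of each list and a red line for the median of all genes tested, 0.04. The interferon list reaches furthest to the left, with a median of −1.09, followed by the MHC class I list at −0.34, and the remaining medians lie between −0.15 and 0.16.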

How the data were processed

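Total RNA (0.1 ug per sample, per the labels) was hybridised to one-colour Cy3 arrays. Per the file headers, the deposited scanner files hold the intensity of each spot from Agilent Feature Extraction 10.7.3.1, after subtraction of a fitted background surface and detrending, and flags of 0 or 1 per spot. The authors' value table holds log2 values, whose sorted columns differed by at most 0.000965, and served as an alternative. Here, spots flagged as outliers were dropped, replicate spots averaged per probe, and the log2 75th percentile subtracted over 55681 non-control probes (log2 9.74 to 9.90 on these arrays). Probes had to be well above background in all 4 arrays of either group (32231 kept), and the brightest stood for a gene (22519 genes, 6576 with several probes). Of the probes, 28026 (50.3%) were named through RefSeq accessions (GRCm38.p6), and positions are in build mm9. The 8 arrays were fitted with limma 3.58.1 (lmFit, eBayes) in R 4.3.3, with Benjamini-Hochberg adjustment, and single probes of the targets also with an exact permutation test. The fit was also run on simulated data of these 22519 genes, with 200 genes changed and noise drawn independently for each gene and array. It recovered 16%, 60%, 84% and 100% of genes changed by 0.25, 0.5, 1 and 2 log2 units, with 4 unchanged genes called. These rates do not carry over to the data, where 2039 genes passed and array effects shared between genes, left out of the simulation, may be present.

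The 40 gene lists, their members and the comparison were chosen with earlier results of these data known. Named are the 5 lysyl oxidases, the 15 highest and 15 lowest differences among genes that passed without overlap and were above background on all 8 arrays, up to 8 per direction above background in 1 group only, the 10 brightest per direction with a difference of at least 0.5, and up to 4 that passed per list (2 where none did); of these rules the text gives the genes that the results turn on. The other members of the interferon and MHC class I lists that are named were chosen after their values were seen. Alternatives were quantile normalization, normexp background correction (offset 50), the value table, other filters, another percentile, the mean of probes, a fit of all 16 arrays, a trended robust prior, replicate number as a block, and leaving out each array. With 4 arrays a group, the number of arrays limits precision. Values of some list members are counted but not reported here by name.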

Additional observations from a re-analysis of the deposited data

Results flagged for a closer look

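Within a group of 4 arrays, 1 array lay apart from the other 3 in 23 of 364 groups tested (6.3%), and chance sets about 1 in 20 groups apart. These groups cover the genes named by rule, the interferon and MHC class I lists and Fn1, not every listed gene. The levels are given as in the report. In siLoxl1 replicate 1, Chac1 read 3.83 (the other 3 arrays 3.91 to 3.92) and Ifnar1 read 2.57 (the other 3 arrays 2.41 to 2.43). There, Sdf2l1 read 2.49 (the other 3 arrays 2.61 to 2.63) and Sel1l read 2.47 (the other 3 arrays 2.31 to 2.33). In siLoxl1 replicate 2, Ces1a read −6.51 (the other 3 arrays −6.29 to −6.27) and Itga4 read −0.19 (the other 3 arrays −0.02 to 0.01). In siLoxl1 replicate 3, H2-T23 read 4.06 (the other 3 arrays 3.88 to 3.91) and Ifnb1 read −3.99 (the other 3 arrays −6.36 to −6.02). There, Il1rl1 read 5.03 (the other 3 arrays 5.15 to 5.16). In siLoxl1 replicate 4, Fn1 read −2.60 (the other 3 arrays 8.25 to 8.33). There, Itga2 read −2.77 (the other 3 arrays −2.49 to −2.44) and Rplp0 read 8.55 (the other 3 arrays 8.65 to 8.66). In siLoxl2 replicate 1, C2 read 1.45 (the other 3 arrays 1.73 to 1.79) and Ddx58 read 4.43 (the other 3 arrays 4.71 to 4.76). There, H2-D1 read 3.96 (the other 3 arrays 4.18 to 4.19) and Hspa1a read 0.22 (the other 3 arrays 0.33 to 0.35). There, Loxl1 read 5.65 (the other 3 arrays 5.78 to 5.80) and Stat2 read 4.21 (the other 3 arrays 4.41 to 4.45). There, Usp18 read 4.19 (the other 3 arrays 4.66 to 4.69). In siLoxl2 replicate 2, H2-Q4 read 4.95 (the other 3 arrays 4.70 to 4.71) and Sel1l read 2.48 (the other 3 arrays 2.63 to 2.65). In siLoxl2 replicate 4, Bcl2l15 read 3.24 (the other 3 arrays 3.09 to 3.1) and Bmpr2 read 0.61 (the other 3 arrays 0.86 to 0.89). Of these, siLoxl2 replicate 1 was the lowest of its group for the interferon genes Ddx58, Stat2 and Usp18, and siLoxl1 replicate 3 held the highest Ifnb1 of its group. The differences of Ddx58, Stat2 and Usp18 passed without each array in turn.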

How the results depend on the processing

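Loxl1 stayed lower in siLoxl1 and passed under all 18 alternatives, at −1.21 to −1.09. Loxl2 did not pass as fitted (0.304, limma adjusted p = 0.0536), and it passed with genes above background on all 8 arrays (0.304, adjusted p = 0.0491), with the mean of probes (0.343, 0.015), with a trended robust prior (0.304, 0.0121) and with the replicate block (0.304, 0.0428). Without 1 array it was 0.259 to 0.369. Between 29 and 38 of 42 interferon genes were lower under every alternative. The count of genes that passed (2039) was 654 with no filter, 911 with all 16 arrays, 3276 with a trended robust prior and 961 with the replicate block, and 636 to 1447 without 1 array. Higher genes (1425) numbered 877 with quantile normalization, 884 in the value table, 382 with no filter, 675 with the percentile over detected probes, 597 with all 16 arrays, 2438 with the trended robust prior and 523 with the block, and 365 to 932 without 1 array. Lower genes (614) numbered 272 with no filter and 314 with all 16 arrays, and 271 to 515 without 1 array. Genes lower by at least 1 (99) numbered 58 with normexp, and genes higher by at least 1 (4) numbered 13 with no filter and 3 to 7 without 1 array. With no filter 34742 genes were tested and with all 16 arrays the spread of slide 1 enters; for the other settings the cause was not tested. Of 155 genes in the named and listed sets that passed, 154 kept their direction throughout, 62 kept their call in all 10 other settings and 79 without each array in turn. The exception was Nsdhl, which read 0.001 with the mean of probes, its 2 probes having opposite signs. Fn1, which did not pass, read 0.059 without siLoxl1 replicate 4 and −3.586 to −2.402 otherwise.

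Replicate numbers match slide columns, and no label says that they mark a shared culture. Deviations of same-numbered arrays correlated at 0.127, 0.22, 0.142 and 0.046, and each of the 4 siLoxl1 arrays correlated best with its own number. The main fit did not treat these arrays as pairs, and a shared effect of column or culture was not tested. With the replicate block 821 of the 2039 genes still passed.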

Other observations

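Genes that the lists do not hold were also among the brightest with a difference of at least 0.5. Parp10, an ADP-ribosyltransferase, read 3.94, 3.88, 3.97 and 3.68 in siLoxl1 and 4.49, 4.53, 4.73 and 4.87 in siLoxl2 (−0.78 ± 0.10, limma adjusted p = 0.00771), and Lrrc8b, a subunit of volume-regulated anion channels, differed by 0.53 ± 0.08 (limma adjusted p = 0.0113). Both calls held without each of the 8 arrays in turn.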
